A study of Mus musculus with 26 samples.

Results

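The 30 genes described here encode the proteins by which a cell makes cholesterol and long-chain fatty acids, together with the proteins that sense sterols and control that synthesis. They were chosen by symbol, as named components of these pathways, from the 46517 gene symbols in the table of normalized counts. All 30 were listed there. By role they comprise 5 genes for sensing and control, 7 for the steps up to farnesyl diphosphate, 11 for the steps from there to cholesterol, 1 for sterol transport and 6 for fatty acid synthesis. Of the 30, 29 reached 10 normalized counts in at least 2 libraries and were tested. Scd1, a fatty acid desaturase, did not.

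RNA-seq was performed on thymocytes sorted from TCR transgenic mice whose MHC-I-restricted receptors were chosen to span self-reactivity, from low (TG6) through intermediate (F5) to high (OT-1). The TG6 mice, a cross of C57/BL6 x B6.C-H2d/bByJ with the genotype TG6tg H2b/d, kept their Rag genes, the F5 mice were F5tg Rag1KO and the OT-1 mice OT-1tg Rag2KO, both on C57/BL6, and the labels give no ages. All carried rearranged receptor transgenes. Cells at early (CD4+CD8+CXCR4+CCR7-) and late positive selection (CD4+CD8+CXCR4-CCR7+) were sorted along with mature CD8SP cells (CD4-CD8+CXCR4-CCR7+), giving 26 libraries in 9 groups of 3, except the TG6 late group with 2. The labels call them biological replicates, and do not say whether 1 mouse gave all stages of a replicate number. Receptor, Rag genotype, strain and MHC differ together between TG6 and the other lines, and receptor and Rag gene differ between F5 and OT-1, so these cannot be told apart in a comparison between lines.

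Cholesterol synthesis runs from acetyl-CoA through mevalonate and farnesyl diphosphate to squalene, lanosterol and finally cholesterol. Its enzymes are transcribed under the SREBP factors, which are made as precursors in the endoplasmic reticulum: when membrane sterols are low, the escort protein SCAP carries SREBP to the Golgi, where proteases release the active part, and when sterols are high, INSIG proteins hold SCAP and SREBP back. Proliferating lymphocytes are known to turn this program on, since a dividing cell must build new membranes, whereas resting lymphocytes run it at a low rate.

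Summed normalized counts per library ranged from 16.1e6 to 18.9e6. Normalization hides the number of reads behind each library, so counting intervals were not computed. The 9 thymocyte markers were detected in all 26 libraries, but their levels moved with stage and line: Cd3e, a T cell receptor component, ranged from 4798 to 8667, whereas the sum ran from 54406 in an OT-1 late library to 175104 in a TG6 early library. The 7 markers of thymic epithelium summed to between 41.7 and 93.1, with the defining Foxn1 and Krt5 at 0 in 25 and 24 libraries, and 5 B cell markers to between 29.97 and 151. The 5 markers of fibroblasts and endothelium summed to between 1856 and 3640, nearly all from Pecam1, which leukocytes also express (1799 to 3627), with Col3a1 at 0 in 25 libraries and Cdh5 in 13. The 5 red cell markers summed to between 33.9 and 1280, and OT-1 replicate 3 was highest at every stage (1280, 1102 and 1165). Markers of macrophages and dendritic cells, 8 in all, summed to between 60.3 and 663. Cell division genes changed with stage in every line, and 2 libraries stood apart from their groups in them, TG6 mature CD8SP replicate 3 (sum over 18 genes of 85488, against 21728 and 23804) and F5 late replicate 2 (11158, against 949 and 847).

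In every line, late cells held less RNA for part of the sterol pathway than early cells, and mature CD8SP cells held more than late cells. Between early and late, Insig1, Pmvk, Idi1, Fdps and Sqle fell in all 3 lines and Elovl6 rose in all 3. Between late and mature, Hmgcs1, Idi1, Sqle, Cyp51, Stard4, Acaca and Fasn rose in all 3 lines and Scd2 fell in all 3. The remaining members moved in 1 or 2 lines or passed the test nowhere. Both steps use the same late libraries, so a low late value enters both, and each step is therefore given with its own test. Tests were made with limma on log2(normalized count + 1) over all 16372 genes, with Benjamini-Hochberg adjustment and a threshold of 0.05 on the adjusted p, and ± after a log2 fold change is its SE.

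**Figure D1:**
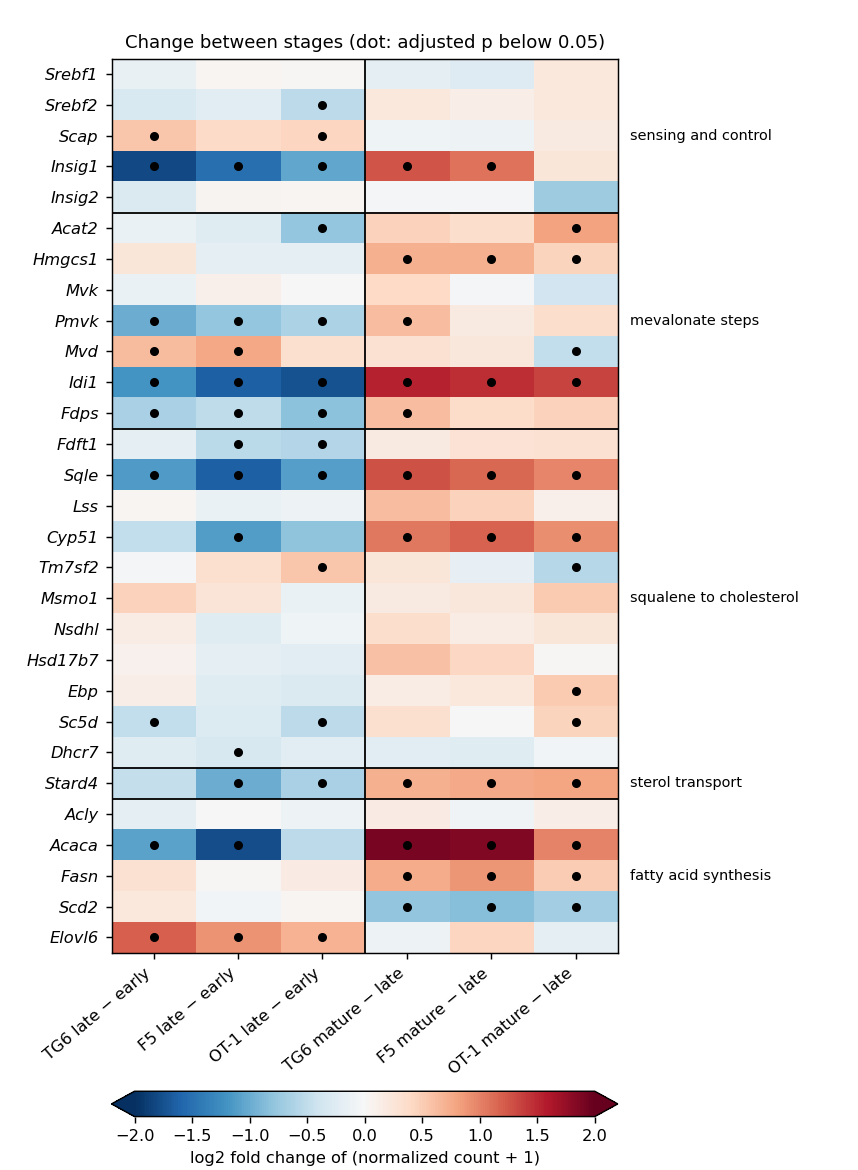
Log2 fold changes of the 29 tested members (rows, by role) in 6 comparisons of stages (columns); red is higher and blue lower in the later stage, and a black dot marks an adjusted p under 0.05. Blue dots for Insig1, Pmvk, Idi1, Fdps and Sqle stand in all 3 late-minus-early columns, and red dots for Hmgcs1, Idi1, Sqle, Cyp51, Stard4, Acaca and Fasn in all 3 mature-minus-late columns.

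From early to late positive selection, 7 of 29 members fell in TG6, where 13.3% of all tested genes fell, 10 fell in F5 (14% of all genes) and 10 fell in OT-1 (14%). Fewer rose: 3 in TG6 against 12.1% of all genes, 2 in F5 against 12.7% and 3 in OT-1 against 12.7%. The median log2 fold change over the 29 members was -0.15 in TG6, -0.22 in F5 and -0.21 in OT-1, beside medians over all genes of 0.00, 0.04 and 0.02. Over the same step all 18 cell division genes fell in each line, with a median log2 change of -5.79 in TG6, -5.96 in F5 and -4.05 in OT-1. The 9 thymocyte markers changed as well, with 7 lower and 2 higher in TG6, 3 and 2 in F5 and 6 and 2 in OT-1. They include Cd4, Cxcr4 and Ccr7, whose proteins separated the stages in the sort, so counts for this list are not independent of the gates. The mean sum of the 8 macrophage and dendritic cell markers went from 115 to 210.3 in TG6 (1 called higher), from 125 to 76.9 in F5 (0 called) and from 363 to 202 in OT-1 (1 called lower). The part of these 3 lists in the members' changes was not tested.

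From late to mature CD8SP, 10 of 29 members rose in TG6 beside 14.5% of all genes, 8 rose in F5 beside 12.2% and 10 rose in OT-1 beside 14%. In TG6 1 member fell (7.79% of all genes), as did 1 in F5 (8.31%) and 3 in OT-1 (10.4%). The members' median log2 fold change was 0.35 in TG6, 0.23 in F5 and 0.24 in OT-1, against 0.00, -0.01 and -0.02 over all genes. All 18 cell division genes rose here in every line, by a median of 4.99, 4.64 and 4.0 in TG6, F5 and OT-1. The mean sum of the 8 macrophage and dendritic cell markers went from 210.3 to 437 in TG6, from 76.9 to 204 in F5 and from 202 to 364 in OT-1 over this step, with 2, 2 and 1 of the 8 called higher and 0 lower. TG6 mature CD8SP replicate 3, the highest of its group for Idi1, Sqle and Acaca, was highest in these markers (663, against 346 and 303) and in cell division genes. Of the 9 thymocyte markers, 2 rose and 2 fell in TG6, 3 and 2 in F5 and 4 and 1 in OT-1. The part of these 3 lists in the members' changes to mature CD8SP was not tested. In bulk libraries a smaller share of cells that express a gene cannot be told apart from less RNA in each cell.

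How far these counts rest on single libraries differed between the comparisons, and the calls over all genes fell along with them. With any 1 library left out, 4 of the 10 calls between TG6 early and late were kept in every fit (Pmvk, Mvd, Insig1 and Elovl6), and the count was lowest, 4 (13.8% of members), without TG6 late replicate 2, where 16.1% of all genes were called against 25.4% with it. In F5, 8 of 12 early-to-late calls were kept (Pmvk, Mvd, Idi1, Sqle, Insig1, Stard4, Acaca and Elovl6), with the lowest count of 8 without F5 early replicate 2 (21.1% of all genes, against 26.7%), and in OT-1 6 of 13 were (Idi1, Fdps, Sqle, Sc5d, Srebf2 and Elovl6), with the lowest count of 7 without OT-1 early replicate 1 (22.1%, against 26.7%). Of the 11 calls between TG6 late and mature CD8SP, Hmgcs1 and Acaca were kept whichever library was left out, and 3 (10.3% of members) were called without TG6 late replicate 2, where 11.5% of all genes were called against 22.3% with it. Without TG6 mature CD8SP replicate 3, 5 members were called, which is 17.2% of members and of all genes. In F5, 6 of 9 late-to-mature calls were kept (Hmgcs1, Idi1, Stard4, Acaca, Fasn and Scd2), with 7 called without F5 mature CD8SP replicate 2 (13.9% of all genes, against 20.5%), and in OT-1 4 of 13 were kept (Mvd, Idi1, Stard4 and Scd2), with 6 called without OT-1 mature CD8SP replicate 3 (18.5%, against 24.4%). None of the calls turned its direction in any fit. With the libraries scaled to equal totals, and also with quantile normalization, the rises to mature CD8SP of Pmvk and Fdps in TG6 and of Sc5d and Fasn in OT-1 were not called (adjusted p from 0.0505 to 0.184 by limma). Quantile normalization alone ended the rises of Cyp51 and Stard4 in TG6 and of Hmgcs1, Cyp51 and Ebp in OT-1 and the falls to late of Fdps, Fdft1 and Dhcr7 in F5 (adjusted p from 0.0540 to 0.146).

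**Figure D2:**
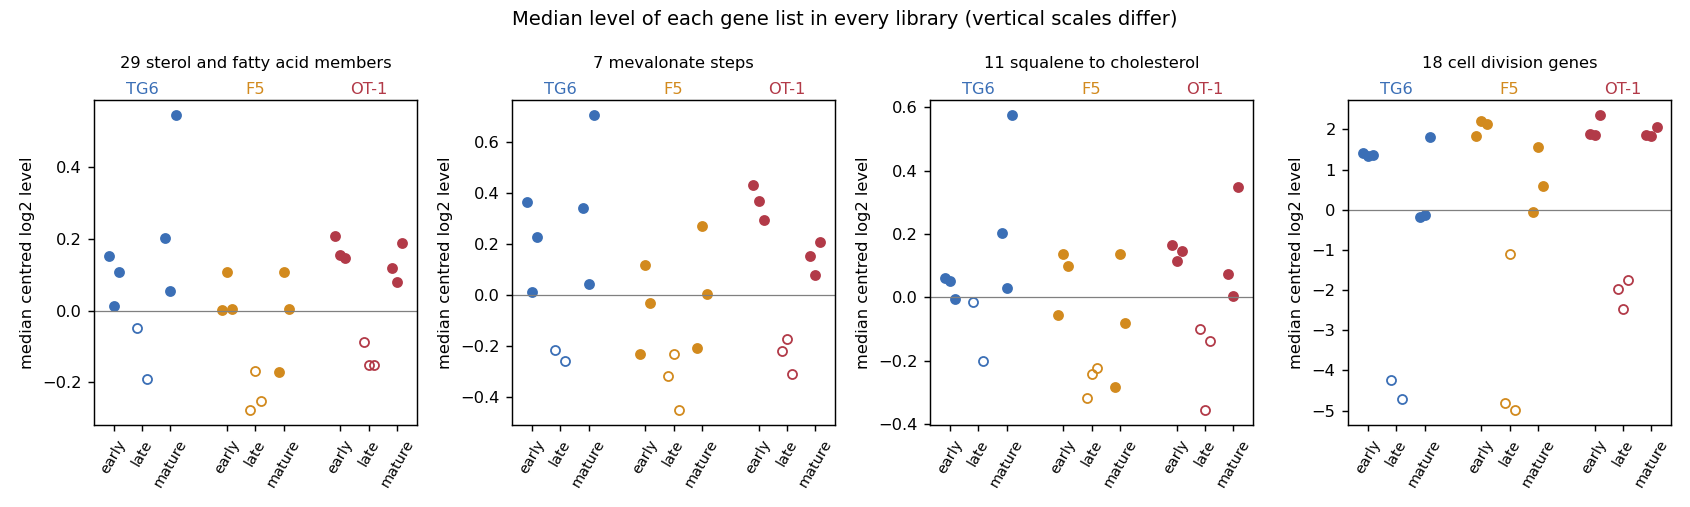
Each point is 1 library; the vertical axis is the median, over the genes of a list, of the log2 level centred on that gene's mean over the 26 libraries, with open points for late cells and vertical scales that differ between panels. The late libraries lie from -0.28 to -0.05 over the 29 members, and TG6 mature CD8SP replicate 3 is the highest library there at 0.54, as it is among the TG6 mature CD8SP libraries in cell division at 1.83.

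Promoter sequence was examined as a feature the choice of genes had not used. RefSeq promoter entries for GRCm38.p6 covered 24 of the 30 members in 32 entries, and none was used for Fdps, Fdft1, Sqle, Stard4, Scd1 or Scd2. In the 250 bases before each start site and on both strands, the sterol element in the form TCACNCCAC was found in 1 of 32 member entries, that of Hmgcs1, and in 1.05% of 32851 entries over all genes. The E-box CACGTG, also bound by SREBP, stood in 5 member entries (6.02% of all entries). The NF-Y box CCAAT was found in 20 of the 32 member entries, against 33.8% of all entries, and the Sp1 box GGGCGG in 23, against 32.7%. These are letter matches, and an absent match says only that the letters were not in that window. Stretches are given for members whose RNA fell from early to late in all 3 lines (Insig1, Pmvk), rose to mature CD8SP in all 3 (Cyp51, Hmgcs1) or rose from early to late, in all 3 lines for Elovl6 and in TG6 and F5 for Mvd, each upstream of the annotated gene, on the gene's strand, with the matched letters of any of the 4 motifs in capitals. The Insig1 stretch is chr5:28071173-28071326 (plus strand), Pmvk chr3:89454395-89454419 (plus), Cyp51 chr5:4104817-4104842 (minus), Hmgcs1 chr13:119690104-119690342 (plus), Mvd chr8:122443435-122443572 (minus) and Elovl6 chr3:129532255-129532354 (plus), all in GRCm38.p6. The Hmgcs1 stretch, the longest, holds 6 matches with the sterol element in its middle, that of Insig1 holds 5 and that of Elovl6 none.
Insig1: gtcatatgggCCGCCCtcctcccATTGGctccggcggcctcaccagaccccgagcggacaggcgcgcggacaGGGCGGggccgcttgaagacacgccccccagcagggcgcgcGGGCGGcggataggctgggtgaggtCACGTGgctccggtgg
Pmvk: ctcaggttggCCAATtcacagcatc
Cyp51: cccacggaggGGGCGGtgcccgggcc
Hmgcs1: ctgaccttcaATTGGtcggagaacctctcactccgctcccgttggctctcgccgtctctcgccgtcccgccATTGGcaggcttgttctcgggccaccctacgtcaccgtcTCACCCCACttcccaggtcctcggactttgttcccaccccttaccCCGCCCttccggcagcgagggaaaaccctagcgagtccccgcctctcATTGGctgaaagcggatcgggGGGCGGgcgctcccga
Mvd: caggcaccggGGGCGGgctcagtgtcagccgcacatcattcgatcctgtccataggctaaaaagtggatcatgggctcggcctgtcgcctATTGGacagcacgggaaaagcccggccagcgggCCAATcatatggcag
Elovl6: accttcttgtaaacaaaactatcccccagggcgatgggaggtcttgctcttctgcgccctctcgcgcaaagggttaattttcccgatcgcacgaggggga

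Among the 5 genes for sensing and control, only Insig1 moved by more than 1 log2 unit between stages. Insig1 encodes the sterol-responsive retention protein and is itself transcribed under SREBP. In TG6 its normalized counts were 1013, 807 and 1067 in early, 286 and 258 in late and 647, 479 and 898 in mature CD8SP libraries. Both late libraries lay below every other TG6 library, with a log2 fold change of -1.81 ± 0.37 (adjusted p = 0.000842) by limma, to late, and 1.26 ± 0.37 (adjusted p = 0.0181) from late to mature CD8SP. In F5 the counts were 858, 521 and 600.4 in early, 449.7, 188 and 137 in late and 758, 424 and 342 in mature CD8SP libraries, falling to late (-1.51 ± 0.33, adjusted p = 0.00171) and rising again (1.08 ± 0.33, adjusted p = 0.025), although F5 late replicate 1 overlapped the mature CD8SP libraries. In OT-1 the counts were 956, 1199 and 862 in early, 481, 605 and 394 in late and 637, 583 and 509 in mature CD8SP libraries. The fall there was -1.03 ± 0.33 (adjusted p = 0.0253) by limma, and the value from late to mature CD8SP was 0.24 ± 0.33 (adjusted p = 0.645). Without TG6 mature CD8SP replicate 3, or either TG6 late library, the TG6 rise was no longer called. The F5 rise was lost without F5 mature CD8SP replicate 1 or F5 late replicate 2 or 3, and the OT-1 fall without OT-1 late replicate 1 or 3 or OT-1 early replicate 1 or 2.

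Insig2, the second retention protein, passed the test in none of the 6 stage comparisons and ranged from 117 to 487 over the 26 libraries. The escort gene Scap moved the opposite way to Insig1: it rose from early to late in TG6 (0.56 ± 0.16, adjusted p = 0.0125) and OT-1 (0.43 ± 0.14, adjusted p = 0.0326) by limma, and its F5 change was 0.38 ± 0.14 (adjusted p = 0.0551), or adjusted p = 0.0307 with the replicate number as a block. In OT-1, Scap normalized counts were 1371, 1406 and 1166 in early and 1896, 1744 and 1647 in late libraries, which did not overlap. Without TG6 early replicate 2 or TG6 late replicate 2 the TG6 rise was not called, and the OT-1 rise was lost in 4 of 6 fits that left out a library, those without OT-1 late replicate 1 or 2 or OT-1 early replicate 1 or 3. Srebf2, whose product mainly drives sterol genes, fell from early to late in OT-1, from 4757, 4559.5 and 4096 to 3242, 3049 and 2984 normalized counts (-0.53 ± 0.10, adjusted p = 0.000525 by limma), with every late library below every early one. In the other lines the same step gave -0.30 ± 0.11 (adjusted p = 0.0572) in TG6 and -0.22 ± 0.10 (adjusted p = 0.121) in F5, the latter 0.0442 with the block. From late to mature CD8SP, Srebf2 in OT-1 gave 0.22 ± 0.10 (adjusted p = 0.131 by limma, or 0.0486 with the block). Srebf1, whose product mainly drives fatty acid genes, passed the test at no stage step, with log2 fold changes from -0.25 to 0.20.

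Of the 7 members acting up to farnesyl diphosphate, Idi1 fell and then rose in all 3 lines and Mvk was called at neither step. Idi1 encodes the isomerase that turns isopentenyl diphosphate into its reactive partner, and its range over the 26 libraries, from 105 to 1518 normalized counts, was the widest of the tested members as a ratio. In TG6 the counts of Idi1 were 613, 526 and 573 in early, 271 and 226 in late and 501, 489.8 and 1518 in mature CD8SP libraries. The 2 late libraries lay below all others, while mature CD8SP replicate 3 stood far above its companions. In F5 they were 574, 563 and 456 in early, 262, 176 and 105 in late and 364, 672 and 424 in mature CD8SP libraries, and in OT-1 702, 770.1 and 671 in early, 189, 243 and 207 in late and 517, 448 and 694 in mature CD8SP libraries. Every late library lay below every early and mature CD8SP library of its line. By limma the early-to-late changes were -1.20 ± 0.38 (adjusted p = 0.0222) in TG6, -1.64 ± 0.34 (adjusted p = 0.000839) in F5 and -1.75 ± 0.34 (adjusted p = 0.000531) in OT-1. The changes from late to mature CD8SP were 1.53 ± 0.38 (adjusted p = 0.00514), 1.47 ± 0.34 (adjusted p = 0.003) and 1.36 ± 0.34 (adjusted p = 0.00555) in the same order. The TG6 fall was not called without either late library or without TG6 early replicate 1 or 3. The TG6 rise was not called without TG6 late replicate 2.

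Pmvk, phosphomevalonate kinase, and Fdps, farnesyl diphosphate synthase, fell together in all lines from early to late. Pmvk normalized counts were 294, 215 and 289 in early, 140.0 and 124 in late and 171, 184 and 267 in mature CD8SP libraries for TG6. Its log2 fold change to late was -0.99 ± 0.21 (adjusted p = 0.00123) there by limma, -0.78 ± 0.19 (adjusted p = 0.00404) in F5 and -0.63 ± 0.19 (adjusted p = 0.0182) in OT-1, with no overlap between early and late libraries in any line. Afterwards Pmvk rose in TG6 (0.62 ± 0.21, adjusted p = 0.0407), a call lost without TG6 mature CD8SP replicate 3 or either late library, while F5 gave 0.19 ± 0.19 (adjusted p = 0.565) and OT-1 0.35 ± 0.19 (adjusted p = 0.192). In OT-1, Fdps counts were 846, 735 and 688 in early, 444, 389.9 and 442 in late and 646, 553 and 554 in mature CD8SP libraries, and the fall of -0.83 ± 0.18 (adjusted p = 0.00151) was larger in the point estimate than those of -0.65 ± 0.20 in TG6 (adjusted p = 0.0192) and -0.50 ± 0.18 in F5 (adjusted p = 0.0422). Differences between these 3 falls were tested only for OT-1 against TG6, without a call. Fdps rose to mature CD8SP in TG6 (0.61 ± 0.20, adjusted p = 0.0313 by limma). In OT-1 the value was 0.46 ± 0.18 (adjusted p = 0.0679, or 0.0343 with the replicate number as a block). The OT-1 fall of Pmvk was lost without OT-1 late replicate 3 or OT-1 early replicate 1, and the TG6 fall of Fdps without either late library or TG6 early replicate 1. The TG6 rise of Fdps was not called without TG6 mature CD8SP replicate 3 or either late library, and the F5 fall was called in 1 of 6 fits that left out a library, the one without F5 late replicate 1.

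Hmgcs1, which makes the HMG-CoA that enters the mevalonate route, was called from early to late in no line (log2 fold changes 0.24 in TG6, -0.18 in F5 and -0.19 in OT-1) and rose from late to mature CD8SP in all 3. Its counts in TG6 were 803, 709 and 743 in early, 933 and 842 in late and 1360.2, 1227 and 1819.8 in mature CD8SP libraries. For F5 they were 718, 899 and 809 in early, 766, 687 and 679 in late and 1249, 1238 and 1020.3 in mature CD8SP libraries, and for OT-1 842, 879 and 1008 in early, 797, 886 and 717 in late and 949, 1136 and 1201 in mature CD8SP libraries. All mature CD8SP libraries lay above all late libraries of their line. The rises by limma were 0.71 ± 0.15 (adjusted p = 0.00175) in TG6, 0.71 ± 0.14 (adjusted p = 0.000557) in F5 and 0.45 ± 0.14 (adjusted p = 0.0186) in OT-1, the last not called without OT-1 mature CD8SP replicate 2 or 3 or OT-1 late replicate 3. Fitted with only the groups compared, the TG6 rise was not called (adjusted p = 0.0923 by limma). Acat2, the cytosolic thiolase that starts the route, passed the test only in OT-1, where it fell (-0.78 ± 0.22, adjusted p = 0.0111) and rose (0.81 ± 0.22, adjusted p = 0.00999), with the late libraries at 258, 155 and 325. Mvk, mevalonate kinase, was called in no stage comparison and ranged from 109 to 300.4.

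**Figure D3:**
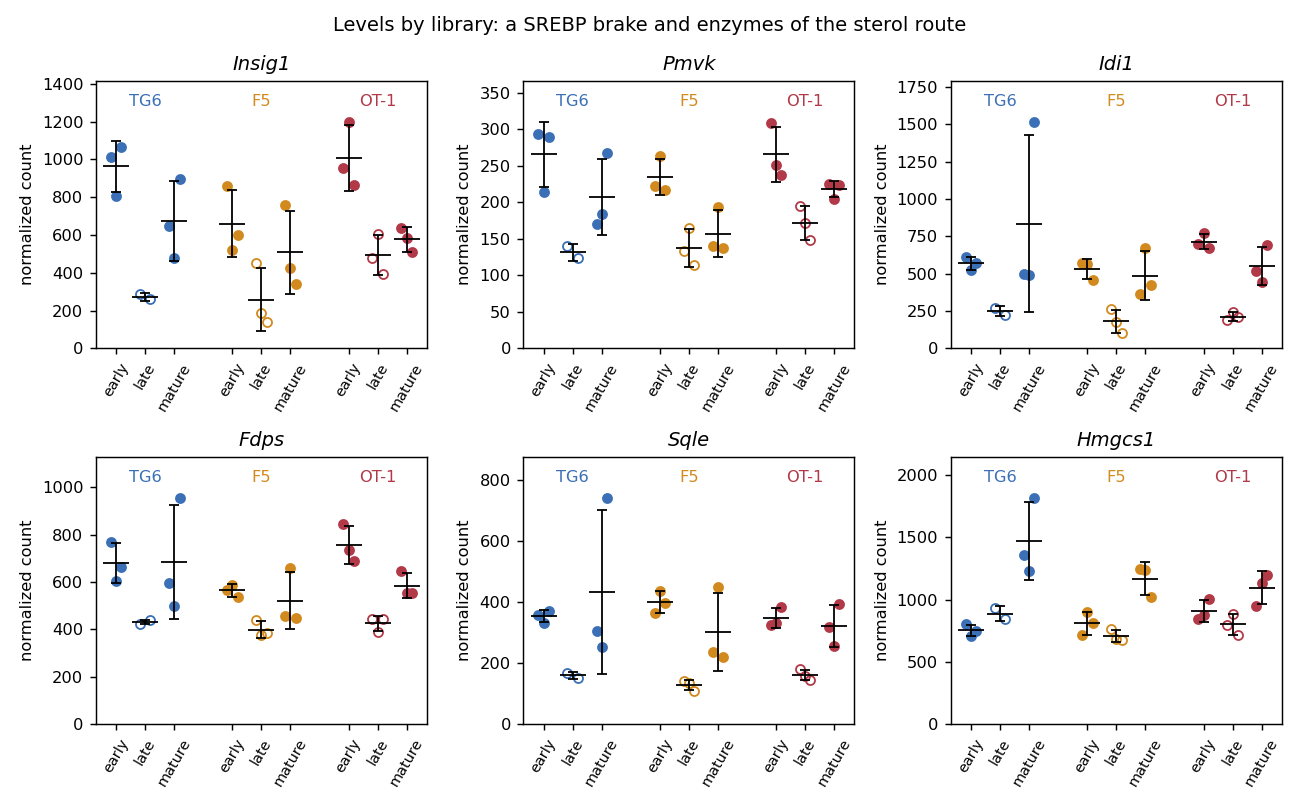
Normalized counts of Insig1, Pmvk, Idi1, Fdps, Sqle and Hmgcs1 on linear axes from 0; each point is 1 library, open points are late cells, and the bars give the group mean with its SD (n = 3, and 2 for TG6 late). Late libraries are the lowest of their line for Idi1 and Sqle in all 3 lines, and the TG6 mature CD8SP group holds 1 library far above the others, at 1518 for Idi1 and 743 for Sqle.

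Mvd, the decarboxylase that makes isopentenyl diphosphate, moved against Pmvk and Idi1. Its RNA rose from early to late in TG6 (0.64 ± 0.15, adjusted p = 0.00212 by limma) and F5 (0.77 ± 0.13, adjusted p = 0.00012), and in OT-1 the value was 0.32 ± 0.13 (adjusted p = 0.075). Normalized counts in F5 were 159, 186 and 141 in early and 292, 280.0 and 254 in late libraries. All late libraries lay above all early ones in each line. From late to mature CD8SP, Mvd fell in OT-1, from 469, 406 and 448 to 321, 310.0 and 311 (-0.49 ± 0.13, adjusted p = 0.00924), while TG6 gave 0.30 ± 0.15 (adjusted p = 0.146) and F5 0.23 ± 0.13 (adjusted p = 0.232). The change from late to mature CD8SP in OT-1 minus that in TG6 was -0.79 ± 0.20 log2 units (adjusted p = 0.0492 by limma), the sole member called in the 2 comparisons of stage changes between these lines. That call was lost when any of 10 libraries was left out, each of them except TG6 mature CD8SP replicate 3.

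Between farnesyl diphosphate and cholesterol, 2 of 11 members fell from early to late in TG6 (13.3% of all genes), 4 in F5 (14%) and 3 in OT-1 (14%), and 0, 0 and 1 rose. From late to mature CD8SP, 2 rose in TG6 (14.5% of all genes), 2 in F5 (12.2%) and 4 in OT-1 (14%), and 0, 0 and 1 fell. A count of 2 of 11 is near the share over all genes. Sqle, squalene epoxidase, which catalyses a rate-limiting step, did both in each line. Its normalized counts were 359, 331 and 370.0 in early, 169 and 152 in late and 306, 253 and 743 in mature CD8SP libraries for TG6. The corresponding counts in F5 were 365, 437 and 398 in early, 142, 134 and 109.7 in late and 236, 449 and 221 in mature CD8SP libraries, and in OT-1 324, 331 and 384 in early, 180.1, 157 and 146 in late and 317, 255 and 393 in mature CD8SP libraries. Late libraries were the lowest of each line without overlap. The falls were -1.14 ± 0.32 (adjusted p = 0.0113) in TG6, -1.63 ± 0.29 (adjusted p = 0.000186) in F5 and -1.10 ± 0.29 (adjusted p = 0.00654) in OT-1 by limma. The rises were 1.27 ± 0.32 (adjusted p = 0.00662), 1.15 ± 0.29 (adjusted p = 0.00599) and 0.98 ± 0.29 (adjusted p = 0.0165). The TG6 fall was not called without either late library, the TG6 rise without TG6 late replicate 2, the F5 rise without F5 mature CD8SP replicate 2 and the OT-1 rise without OT-1 mature CD8SP replicate 3 or OT-1 late replicate 3.

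Cyp51, the lanosterol demethylase, rose from late to mature CD8SP in all lines: 1.05 ± 0.34 (adjusted p = 0.0304) in TG6, 1.19 ± 0.31 (adjusted p = 0.00766) in F5 and 0.93 ± 0.31 (adjusted p = 0.0314) in OT-1 by limma. Of the 5 fits that left out 1 library, the TG6 rise was called in the one without TG6 mature CD8SP replicate 2. Before that Cyp51 fell in F5, from 354, 489.7 and 302 to 276, 128 and 146 normalized counts (-1.11 ± 0.31, adjusted p = 0.0093 by limma). In OT-1 the value was -0.81 ± 0.31 (adjusted p = 0.056, or 0.0335 with the replicate number as a block) and in TG6 it was -0.49 ± 0.34 (adjusted p = 0.345). The F5 rise was lost without F5 mature CD8SP replicate 2, the F5 fall without F5 late replicate 2 or F5 early replicate 2, and the OT-1 rise in 5 of 6 fits, all but the one without OT-1 mature CD8SP replicate 2. Fdft1, squalene synthase, fell to late in F5 (-0.54 ± 0.19, adjusted p = 0.0387) and OT-1 (-0.59 ± 0.19, adjusted p = 0.0262) and was called in no later step. Sc5d, lathosterol oxidase, fell in TG6 (-0.49 ± 0.15, adjusted p = 0.0213) and OT-1 (-0.52 ± 0.14, adjusted p = 0.00655), and in F5 gave -0.28 ± 0.14 (adjusted p = 0.141), or 0.0229 with the replicate number as a block. Sc5d rose again to mature CD8SP in OT-1, from 241, 226 and 279 to 348, 315 and 356 counts (0.45 ± 0.14, adjusted p = 0.0198). Ebp, the sterol isomerase, rose there as well (0.53 ± 0.14, adjusted p = 0.00793), with OT-1 mature CD8SP libraries at 575, 586 and 579.7. With 1 library left out, the falls of Fdft1 were lost in 4 of 6 fits in F5 and 3 of 6 in OT-1, the TG6 fall of Sc5d in 4 of 5 and its OT-1 rise in 4 of 6, and the rise of Ebp in the fit without OT-1 late replicate 2.

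Tm7sf2, a sterol reductase, again moved in OT-1 only by the test within lines, and in the direction opposite to Sqle: from 132, 134 and 121 in early to 200.3, 193 and 176 in late (0.55 ± 0.19, adjusted p = 0.0328) and back to 122, 149 and 113 in mature CD8SP libraries (-0.57 ± 0.19, adjusted p = 0.0311). Its 2 changes in OT-1 minus those in TG6 were 0.60 ± 0.28 (adjusted p = 0.403) to late and -0.81 ± 0.28 (adjusted p = 0.241) to mature CD8SP. With 1 OT-1 library left out, the rise was lost in 5 of 6 fits and the fall in 4 of 6. Tm7sf2 overlaps Vps51 on the same strand, so reads from the shared part may be split between them. Dhcr7, the reductase of the final step, fell from early to late in F5 (-0.32 ± 0.11, adjusted p = 0.0377), where 1 late library overlapped the early ones and the call was lost in 4 of 6 fits that left out a library, and gave -0.24 ± 0.13 (adjusted p = 0.182) in TG6. No rise to mature CD8SP was called: the values were -0.23 in TG6, -0.25 in F5 (adjusted p = 0.134, or 0.0262 with the replicate number as a block) and -0.06 in OT-1. Lss, Msmo1, Nsdhl and Hsd17b7, which act between Sqle and Ebp, were called in no stage comparison. For Msmo1 in OT-1 the late-to-mature value was 0.53 ± 0.25 (adjusted p = 0.124 by limma, or 0.0273 with the replicate number as a block). Hsd17b7 spread widely within groups, for example 156, 241 and 79.9 in OT-1 early libraries.

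Stard4, which carries cholesterol between membranes, fell from early to late in F5 and OT-1 and rose to mature CD8SP in all 3 lines. In F5 its normalized counts were 603, 560.1 and 592 in early, 299, 281 and 304 in late and 489, 507 and 498 in mature CD8SP libraries. The late libraries formed a tight group below all others, and the changes were -0.99 ± 0.19 (adjusted p = 0.000432) and 0.76 ± 0.19 (adjusted p = 0.0061) by limma. In OT-1 they were -0.65 ± 0.19 (adjusted p = 0.0143) and 0.80 ± 0.19 (adjusted p = 0.00408), the fall not called without OT-1 late replicate 1 or OT-1 early replicate 1. The TG6 rise of 0.72 ± 0.21 (adjusted p = 0.0178) was not called without TG6 mature CD8SP replicate 3 or either late library.

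Of the fatty acid genes, Acaca fell and rose in TG6 and F5. It encodes acetyl-CoA carboxylase, which commits acetyl-CoA to fatty acid synthesis. TG6 libraries held 1008, 678 and 789 in early, 484 and 311 in late and 1339, 1110.1 and 2076 in mature CD8SP libraries. F5 libraries held 876, 769 and 717 in early, 305, 248 and 159.8 in late and 854, 659 and 1026 in mature CD8SP libraries, and OT-1 libraries 1708, 986 and 813 in early, 921, 945 and 531 in late and 1696, 1375 and 1543 in mature CD8SP libraries. In TG6 and F5, all late libraries lay below all early and mature CD8SP ones, whereas in OT-1 late replicates 1 and 2 lay among the early libraries. Acaca fell to late in TG6 (-1.07 ± 0.33, adjusted p = 0.0189 by limma) and F5 (-1.77 ± 0.29, adjusted p = 9.4e-05), and OT-1 gave -0.52 ± 0.29 (adjusted p = 0.205). It rose to mature CD8SP in TG6 (1.90 ± 0.33, adjusted p = 0.000217), F5 (1.85 ± 0.29, adjusted p = 8.62e-05) and OT-1 (0.99 ± 0.29, adjusted p = 0.0173). The TG6 fall was not called without TG6 late replicate 2 or TG6 early replicate 1, nor the OT-1 rise without OT-1 mature CD8SP replicate 1 or OT-1 late replicate 3.

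Fasn, fatty acid synthase, rose only at the second step: 0.75 ± 0.21 (adjusted p = 0.0115) in TG6, 0.89 ± 0.18 (adjusted p = 0.00126) in F5 and 0.51 ± 0.18 (adjusted p = 0.0457) in OT-1 by limma. In OT-1 its counts were 3798, 3974 and 3139 in early, 4614, 3815 and 3829 in late and 6247, 5683 and 5523 in mature CD8SP libraries, with no overlap between late and mature CD8SP libraries. From early to late the log2 fold changes were 0.31, 0.02 and 0.17 in TG6, F5 and OT-1 (adjusted p = 0.316 in TG6). Without TG6 mature CD8SP replicate 3 or either late library the TG6 rise was not called, and the OT-1 rise was lost in 5 of 6 fits, all but the one without OT-1 late replicate 1.

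Elovl6, which lengthens palmitate, rose from early to late in TG6 (1.19 ± 0.21, adjusted p = 0.000195), F5 (0.89 ± 0.19, adjusted p = 0.00117) and OT-1 (0.69 ± 0.19, adjusted p = 0.00939) and was called at the later step in none. TG6 counts of Elovl6 were 328, 291 and 172 in early and 625 and 539 in late libraries. No early library reached a late one in any line. Scd2, a fatty acid desaturase, was not called between early and late (from -0.05 to 0.21) and fell to mature CD8SP in TG6 (-0.79 ± 0.18, adjusted p = 0.00307), F5 (-0.86 ± 0.16, adjusted p = 0.000573) and OT-1 (-0.69 ± 0.16, adjusted p = 0.00378). F5 late libraries held 7178, 8278 and 6324 normalized counts of Scd2 and mature CD8SP libraries 4118, 4702 and 3276, without overlap. Scd1 stood between 0 and 6.85 in every library and was at 0 in 12 of 26. Acly, which makes the cytosolic acetyl-CoA that both routes use, was called in no comparison and stayed between 4582 and 6176 normalized counts.

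Fewer members were called between lines than between stages. At early positive selection, OT-1 exceeded TG6 in 3 members (15.4% of all genes) and was lower in 3 (12.4%). Late cells gave 2 higher (9.34%) and 3 lower (6.21%), and mature CD8SP cells 0 and 0 (4.67% and 5.08% of all genes), where 6 members had an unadjusted p under 0.05. Against F5, OT-1 had 2 members higher (7.81%) and 2 lower (4.88%) in early, 4 (13.6%) and 2 (10.4%) in late and 2 (13.3%) and 1 (10.1%) in mature CD8SP cells. F5 against TG6 gave 0 higher (3.12%) and 1 lower (3.35%) in early, 1 (1.75%) and 0 (3.23%) in late, and 0 (2.14%) and 2 (4.5%) in mature CD8SP cells. Comparisons that share a line share its libraries. The median log2 difference over the 29 members was 0.14, 0.00 and -0.20 for OT-1 against TG6 in early, late and mature CD8SP cells, 0.17, 0.17 and 0.18 for OT-1 against F5 and -0.11, -0.22 and -0.31 for F5 against TG6, where 17, 25 and 27 of 29 values were negative, and medians over all genes lay between -0.01 and 0.02. With equal totals the medians over all genes were -0.11, -0.13 and -0.10 for OT-1 against TG6 and -0.10, -0.08 and -0.13 for OT-1 against F5. Small medians of the members therefore depend on the scaling. The values at the mature stage against TG6 include TG6 mature CD8SP replicate 3, the highest library in the profile of the members. With any 1 library left out, Mvd, Dhcr7 and Srebf1 stayed called between OT-1 and TG6 early cells, 0 of 5 between late cells (0 called without TG6 late replicate 2), and Mvd in early, Mvd, Acaca and Fasn in late and Tm7sf2 in mature CD8SP cells between OT-1 and F5. Without F5 late replicate 2, 3 members differed between OT-1 and F5 late cells, where 18.8% of all genes were called against 24.0% with it. Without TG6 mature CD8SP replicate 3, 4 members (13.8%) differed between OT-1 and TG6 mature CD8SP cells, and the share of all genes rose from 9.74% to 27.3%, so the shares for this comparison rest on that library. None of the calls between F5 and TG6 was kept in all such fits. With equal totals and with quantile normalization, Acaca between OT-1 and TG6 late cells, Acaca and Ebp between OT-1 and F5 mature CD8SP cells and the difference of changes in Mvd were not called (adjusted p from 0.0508 to 0.113 by limma). Equal totals alone ended the calls of Ebp between OT-1 and TG6 early cells and of Tm7sf2 between F5 and TG6 late cells, and quantile normalization alone that of Srebf1 between OT-1 and F5 late cells. For the change from early to late, 0 members differed between OT-1 and TG6 in either direction (0.947% of all genes higher and 1.09% lower), and 2 had an unadjusted p under 0.05. For the change from late to mature CD8SP, 0 were higher (0.263%) and 1, Mvd, was lower (0.91%).

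**Figure D4:**
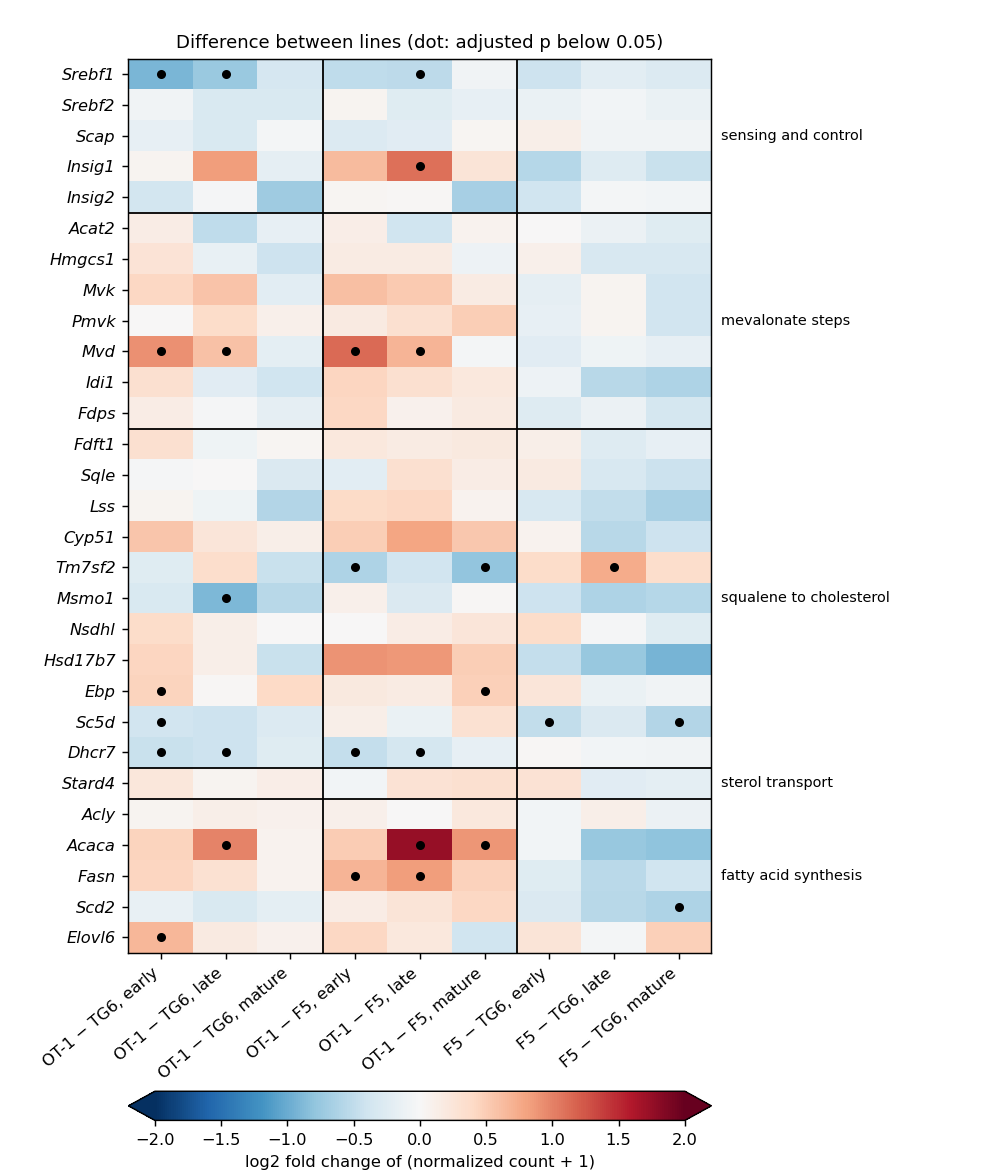
Log2 fold changes of the 29 tested members (rows, by role) between lines at each stage (columns); red is higher in the first-named line and a black dot marks an adjusted p under 0.05. Dots are sparse, with 6, 5 and 0 for OT-1 against TG6 and 4, 6 and 3 for OT-1 against F5 in early, late and mature CD8SP cells.

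Srebf1 was lower in OT-1. In early libraries its normalized counts were 4414, 3735 and 4221 in TG6, 2908, 3499 and 2913 in F5 and 2373, 1971 and 2237 in OT-1. All OT-1 libraries lay below all others, and the difference was -0.91 ± 0.18 (adjusted p = 0.000808) against TG6 by limma and -0.50 ± 0.18 (adjusted p = 0.078) against F5. In late libraries they were 4017 and 3417 in TG6, 2389, 3426 and 3963 in F5 and 1959, 2193 and 2523 in OT-1, giving -0.74 ± 0.20 (adjusted p = 0.016) against TG6 and -0.53 ± 0.18 (adjusted p = 0.0398) against F5, where OT-1 and F5 libraries overlapped. In mature CD8SP cells the difference from TG6 was -0.34 ± 0.18 (adjusted p = 0.25) (95% interval -0.72 to 0.04). The late differences were lost without single libraries, and those in early cells against TG6 were kept.

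Mvd was higher in OT-1 before maturity. Early libraries held 214, 168 and 184 in TG6, 159, 186 and 141 in F5 and 333, 341 and 386 in OT-1, so that each OT-1 library exceeded every library of the other lines, with differences of 0.91 ± 0.13 (adjusted p = 2e-05) from TG6 and 1.13 ± 0.13 (adjusted p = 2.92e-06) from F5 by limma. Late libraries held 309 and 276 in TG6, 292, 280.0 and 254 in F5 and 469, 406 and 448 in OT-1, with differences of 0.59 ± 0.15 (adjusted p = 0.00773) and 0.68 ± 0.13 (adjusted p = 0.000542). At the mature CD8SP stage the OT-1 libraries overlapped those of F5 (-0.04 ± 0.13, adjusted p = 0.85 by limma). They lay below every TG6 library, without a call (-0.20 ± 0.13, adjusted p = 0.349). The early difference from both lines and the late one from F5 were kept whichever library was left out.

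Dhcr7 was lower in OT-1 at the first 2 stages. Normalized counts in early libraries were 1363, 1468 and 1297 in TG6, 1415, 1573 and 1220.3 in F5 and 1023, 934 and 1069 in OT-1. No OT-1 library reached the others, and the differences by limma were -0.45 ± 0.11 (adjusted p = 0.00531) from TG6 and -0.47 ± 0.11 (adjusted p = 0.00721) from F5. In late cells they were -0.41 ± 0.13 (adjusted p = 0.0301) and -0.35 ± 0.11 (adjusted p = 0.0267). Sc5d was lower in OT-1 than in TG6 in early cells (-0.38 ± 0.14, adjusted p = 0.0412), gave -0.42 ± 0.15 (adjusted p = 0.0701) in late cells and was lower in F5 than in TG6 in early (-0.50 ± 0.14, adjusted p = 0.031) and mature CD8SP cells (-0.59 ± 0.14, adjusted p = 0.00784). With 1 library left out, the Sc5d call of OT-1 was lost in 6 of 6 fits, and those of F5 in 5 of 6 (early) and 1 of 6 (mature CD8SP). Msmo1, the methylsterol oxidase, was lower in OT-1 than in TG6 in late cells, at 142, 153 and 159 against 239 and 334 (-0.90 ± 0.27, adjusted p = 0.0299).

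Tm7sf2 was lower in OT-1 than in F5 in early (-0.62 ± 0.19, adjusted p = 0.0333) and mature CD8SP cells (-0.80 ± 0.19, adjusted p = 0.00435) and higher in F5 than in TG6 in late cells (0.74 ± 0.21, adjusted p = 0.0414). Its late libraries held 168 and 131 in TG6, 213, 256 and 281 in F5 and 200.3, 193 and 176 in OT-1. With 1 library left out, the early Tm7sf2 call was lost in 6 of 6 fits and the late one in 4 of 5, while the mature CD8SP one was kept. Ebp was higher in OT-1 than in TG6 in early cells (0.44 ± 0.14, adjusted p = 0.0208) and than in F5 in mature CD8SP cells (0.47 ± 0.14, adjusted p = 0.0178). Insig1 was higher in OT-1 than in F5 in late cells (1.10 ± 0.33, adjusted p = 0.0201), where F5 late replicate 1 at 450 overlapped the OT-1 libraries.

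Fasn and Acaca were higher in OT-1 than in F5. Fasn in early libraries was at 2586, 2642 and 2798 in TG6, 2671, 2176 and 1973 in F5 and 3798, 3974 and 3139 in OT-1, a difference of 0.68 ± 0.18 (adjusted p = 0.0161) from F5 by limma, and in late libraries at 3177 and 3454 in TG6, 3270.2, 2252 and 1627 in F5 and 4614, 3815 and 3829 in OT-1, a difference of 0.83 ± 0.18 (adjusted p = 0.00204). OT-1 and F5 libraries did not overlap at either stage. Acaca was higher in late OT-1 cells, where libraries held 484 and 311 in TG6, 305, 248 and 159.8 in F5 and 921, 945 and 531 in OT-1. Each OT-1 library lay above every TG6 and F5 library, with 1.75 ± 0.29 (adjusted p = 0.00013) against F5 and 0.99 ± 0.33 (adjusted p = 0.0431) against TG6. In mature CD8SP cells Acaca was also above F5 (0.88 ± 0.29, adjusted p = 0.0339). Elovl6 was higher in OT-1 than in TG6 in early cells (0.67 ± 0.19, adjusted p = 0.0116). Scd2 was lower in F5 than in TG6 in mature CD8SP cells (-0.62 ± 0.16, adjusted p = 0.0216), and OT-1 against F5 gave 0.41 ± 0.16 (adjusted p = 0.0701) there.

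**Figure D5:**
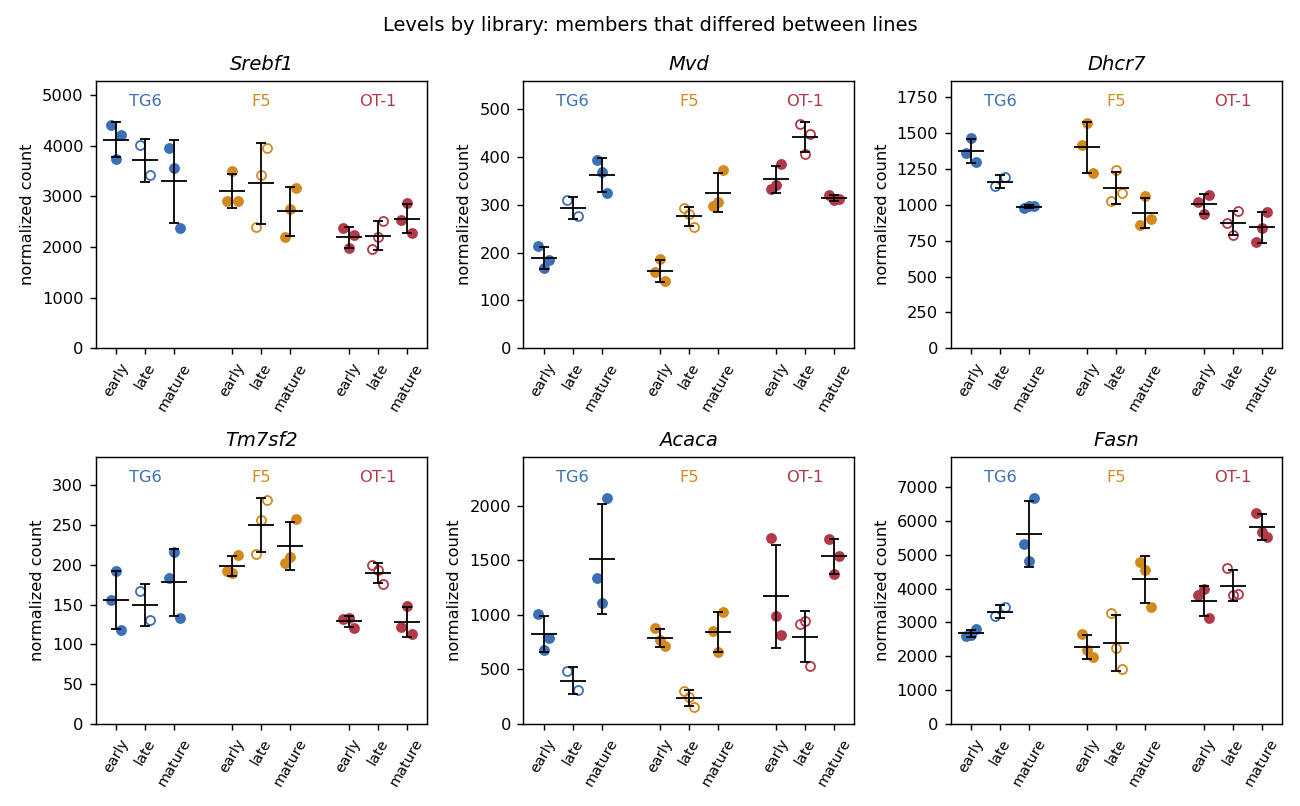
Normalized counts of Srebf1, Mvd, Dhcr7, Tm7sf2, Acaca and Fasn on linear axes from 0; each point is 1 library, open points are late cells, and the bars give the group mean with its SD (n = 3, and 2 for TG6 late). For Mvd the OT-1 early and late libraries, from 333 to 469, stand above those of TG6 and F5 at the same stage, and in mature CD8SP cells they do not.

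Other measures moved with the lines. In late cells OT-1 exceeded TG6 in 10 of 18 cell division genes and F5 in 5, and 0 of 18 were called between the lines in early or mature CD8SP cells. Their fitted values were nonetheless higher in OT-1 mature CD8SP cells for 18 of 18 genes against both TG6 (median log2 difference 1.36) and F5 (1.14), with mean sums of 95637 in OT-1, 43673 in TG6 (single libraries 21728, 23804 and 85488, so that replicate 3 sets this mean) and 44530.1 in F5, and in early cells for 18 of 18 against TG6 (0.66). F5 was above TG6 in fitted value for 18, 17 and 17 of the 18 in early, late and mature CD8SP cells (medians 0.73, 0.83 and 0.21), with 0 called. Of the 8 macrophage and dendritic cell markers, OT-1 exceeded TG6 in 6, 2 and 0 in early, late and mature CD8SP cells and was lower in 0, 0 and 1. Against F5 it was higher in 4, 6 and 2 and lower in none, and F5 against TG6 gave 0 higher and 0, 1 and 0 lower. Over all genes, the shares called higher were those given with the member counts, from 4.67% to 15.4% in the OT-1 comparisons. The summed markers ranged from 194 to 449 in OT-1 early libraries, from 97.8 to 141 in TG6 and from 60.3 to 201 in F5. Of the 9 thymocyte markers, 6, 3 and 3 were called lower in OT-1 than in TG6 in early, late and mature CD8SP cells (12.4%, 6.21% and 5.08% of all genes) and 1, 0 and 0 higher, and against F5 3, 6 and 3 were lower (4.88%, 10.4% and 10.1%) and 1, 1 and 0 higher. F5 against TG6 gave 1 higher and 0 lower at each stage. The median log2 difference was -1.37 from TG6 in early cells and -1.11 from F5 in late cells, and the mean sum in early cells was 64631 in OT-1, 117624 in F5 and 170505 in TG6. This sum includes Rag1, which ranged from 24.1 to 58364 over the libraries and is knocked out in the F5 mice. The part of these 3 lists in the members' differences was not tested.

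For the control proteins that are not members, the 5 genes of SREBP processing gave 0 calls from early to late and 0 rises and 1 fall to mature CD8SP in each line. Over all genes, 12.1% to 14% were called in either direction at the first step, and 12.2% to 14.5% rose and 7.79% to 10.4% fell at the second. Mbtps1, the protease that makes the first cut in SREBP, was lower in OT-1 than in TG6 in early (-0.54 ± 0.09), late (-0.43 ± 0.10) and mature CD8SP cells (-0.44 ± 0.09), and than in F5 at all 3 stages (-0.64, -0.50 and -0.68). The prenyl and polyprenyl branch, which leaves the sterol route at farnesyl diphosphate, had 2 of 17 genes higher and 2 lower from early to late in TG6, 3 and 3 in F5 and 3 and 2 in OT-1, near the 12.1% to 14% of all genes called in either direction there. Of 13 tested genes for sterol efflux, storage and trafficking, 0 rose to mature CD8SP in any line, and 3, 4 and 2 fell in TG6, F5 and OT-1, where 7.79%, 8.31% and 10.4% of all genes fell.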

How the data were processed

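Sorted thymocytes were processed for total RNA with a Quick-RNA Microprep kit and sequenced on an Illumina HiSeq. Per the submitters' processing notes the reads went through Trimmomatic 0.32, Bowtie2 2.3.2 (build mm10) and RSEM 1.2.31, and the authors scaled the estimated gene counts with DESeq2. The deposited values are these normalized counts, a signal rather than whole reads. Library strand was not given in the sources used here, so reads of overlapping genes on opposite strands may be mixed: Cyp51 with Akap9, Fdft1 with Ctsb, Srebf1 with Rai1, and Mvd, Idi1, Hmgcs1, Acaca, Scap, Elovl6, Lss and Insig2 each with a less characterised gene.

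Here, genes with at least 10 normalized counts in at least 2 libraries (16372 of 46517) were tested on log2(value + 1) with limma 3.58.1 in R 4.3.3, as 9 group means over 26 libraries with 17 residual degrees of freedom and a mean-variance trend, with Benjamini-Hochberg adjustment within each comparison. Fold changes on this scale understate those of low genes. The step was tested on simulated data, where 157 of 200 changed genes and all 100 changed by 2 log2 units were called. The 30 members, the other gene lists and the alternatives were chosen with earlier results of these data known. Members are named with values whether or not they were called, and in the other pathway lists some of the called genes are. Replicate numbers 1 to 3 recur across stages in the labels, which do not say that a number marks a mouse. The deviations of same-numbered libraries from their group means had correlations of 0.11 to 0.34 in F5 (9 of 9 pairs over 0.1), 0.02 to 0.18 in OT-1 (5 of 9) and 0.02 to 0.27 in TG6 (2 of 7), against -0.28 to 0.05, -0.14 to 0.05 and -0.23 to 0.09 for unlike numbers. Values with the number as a block are therefore set beside the results within F5 and OT-1 whose call they changed. The column names of the TG6 late libraries differ slightly from their titles, and were matched by stage letter and number. Paralogs Acat3, Idi2, Scd3, Scd4 and Acacb stood at or under 82.5, 15.8, 17.5, 229 and 337 normalized counts.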

Additional observations from a re-analysis of the deposited data

Results flagged for a closer look

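With all libraries, the change of Mvd from late to mature CD8SP differed between OT-1 and TG6 by -0.79 log2 units (OT-1 minus TG6, SE 0.20, adjusted p = 0.0492 by limma): the OT-1 mean went from 441 ± 32.0 (SD, n = 3) to 314 ± 5.99 normalized counts (SD, n = 3), and the TG6 mean from 293 ± 23.4 (SD, n = 2) to 362 ± 35.6 (SD, n = 3). F5 went from 275 ± 19.6 to 325 ± 41.2 (SD, n = 3 each), and its difference from the other lines in this change was not tested. The call was lost in 10 of 11 fits that left out a library and in 4 of 9 other fits (no filter, equal totals, quantile normalization and only the groups compared).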

How the results depend on the processing

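Of 97 calls of members, 36 were kept in every alternative fit, 62 in every fit that left no library out and 38 in every fit that left out 1 library, and 0 reversed. With any 1 library left out, the number of members called ran from 4 to 9 (TG6 late minus early, 10 with all libraries), 3 to 12 (TG6 mature minus late, 11), 8 to 12 (F5 late minus early, 12), 7 to 9 (F5 mature minus late, 9), 7 to 11 (OT-1 late minus early, 13) and 6 to 12 (OT-1 mature minus late, 13). For OT-1 minus TG6 it ran from 3 to 6 in early, 0 to 7 in late and 0 to 4 in mature CD8SP cells, for OT-1 minus F5 from 1 to 3, 3 to 7 and 1 to 5, for F5 minus TG6 from 0 to 1, 0 to 2 and 1 to 2, and for the difference of changes between OT-1 and TG6 from 0 to 0 to late and 0 to 2 to mature. Fitting only the groups compared, with fewer libraries behind the spread, gave 2 members (6.9%, beside 6.34% of all genes) for TG6 mature minus late, 7 and 3 for OT-1 minus F5 in early and late, 2, 0 and 0 for F5 minus TG6, and 0 for the difference of changes to mature. Quantile normalization gave 7 for TG6 mature minus late, 2 for OT-1 minus TG6 and 1 for OT-1 minus F5 in mature cells, and 0 for the difference of changes to mature. Equal totals gave 2 for OT-1 minus TG6 in mature cells, 0 for F5 minus TG6 in late cells and 0 for that difference, no filter gave 0 and 0 for the latter pair, and a mean of at least 50 gave 1 for OT-1 minus TG6 in mature cells. The cause was not tested. With the replicate block, 12 and 8 members were called in TG6, 15 and 10 in F5 and 14 and 16 in OT-1 at the steps to late and to mature, and the differences of changes gave 1 to late (Tm7sf2) and 2 to mature (Mvd and Tm7sf2). It added 4 calls and ended 0 in F5 and in OT-1, added 3 and ended 4 in TG6 (Idi1 to late, Fdps, Cyp51 and Stard4 to mature) and added 2 and ended 1 between lines. In no line do the labels say that libraries with the same number share a mouse. Equal totals moved the median of all genes by -0.11 in TG6 mature minus late and OT-1 minus TG6 early, by -0.13 in OT-1 minus TG6 late and by -0.14 in OT-1 minus F5 mature cells, and quantile normalization by -0.10 in TG6 mature minus late. Of the calls over all genes, the percentage higher went with equal totals from 65.1 to 49.8 in TG6 mature minus late, from 55.3 to 40.7, 60.1 to 38.8 and 47.9 to 30.3 in OT-1 minus TG6 and from 61.5 to 43.6, 56.8 to 46.0 and 56.9 to 34.4 in OT-1 minus F5 (early, late, mature), and with quantile normalization to 49.4 in TG6 and from 57.5 to 46.2 in OT-1 mature minus late and to 44.8 in OT-1 minus F5 mature cells.

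A p that missed the threshold does not show equality, the deposited values hide sequencing depth, and the TG6 late group of 2 libraries gave its comparisons the least precision.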

Other observations

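Genes of fatty acid oxidation and of the rest of fatty acid synthesis, which were not among the 30 members, were tested in the same fit (limma, Benjamini-Hochberg adjusted p under 0.05), where 13.3%, 14% and 14% of all genes fell and 12.1%, 12.7% and 12.7% rose from early to late in TG6, F5 and OT-1, and 14.5%, 12.2% and 14% rose and 7.79%, 8.31% and 10.4% fell from late to mature CD8SP. Of 19 tested oxidation genes, 6 fell and 2 rose from early to late in TG6, 4 and 2 in F5 and 3 and 3 in OT-1, and 6, 4 and 3 rose and 0, 0 and 2 fell from late to mature CD8SP in TG6, F5 and OT-1. Several of these shares, such as both in OT-1 from early to late, lay near those over all genes. Acadl, a mitochondrial acyl-CoA dehydrogenase, fell to late in TG6 (log2 fold change -1.37 ± 0.19, SE), F5 (-1.43 ± 0.17) and OT-1 (-0.75 ± 0.17) and rose to mature CD8SP by 1.31, 0.83 and 0.70. Decr1, which prepares unsaturated fatty acids for oxidation, fell in TG6 (-2.0 ± 0.41) and F5 (-1.86 ± 0.37) and rose in both (2.41 and 1.91). Cpt1a, which admits fatty acids to mitochondria, was higher in F5 than in TG6 in early (1.95 ± 0.46), late (3.11 ± 0.52) and mature CD8SP cells (1.86 ± 0.46).

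Of 17 other tested genes of fatty acid synthesis and elongation, 6, 4 and 5 rose and 1, 3 and 2 fell from early to late in TG6, F5 and OT-1, and 5, 5 and 5 rose and 1, 1 and 2 fell to mature CD8SP. The falls lay near or below the shares over all genes. Elovl7, an elongase, rose to late in all 3 lines, from 1.05 ± 0.38 in TG6 to 2.73 ± 0.34 in OT-1. Acsl5, which activates fatty acids, rose to mature CD8SP in TG6 (0.78 ± 0.11), F5 (0.70 ± 0.10) and OT-1 (0.95 ± 0.10), and was higher in OT-1 than in F5 in late (0.72 ± 0.10) and mature CD8SP cells (0.97 ± 0.10). Me1, which makes NADPH for fatty acid synthesis, was lower than in TG6 in early cells of F5 (-4.15 ± 0.48) and OT-1 (-3.07 ± 0.48). Its level was near the floor, at 0 in 16 of 26 libraries and at most 45.3 normalized counts, so these fold changes depend on the added 1. All 18 cell division genes changed over the same stage steps, and their part in these changes was not tested.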
